A study of Mus musculus with 9 samples.

Results

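The genes described here are 33 genes of lipoprotein metabolism, given by name: the apolipoproteins measured in liver, the proteins that assemble and secrete lipoproteins, the lipases and their regulators, the enzymes and transporters of high-density lipoprotein (HDL), and a pair of uptake receptors. All 33 were among the 17154 genes present in both count tables. The livers were from male C57BL/6 mice (C57BL/6J in the study's methods), with 3 libraries in each of 3 groups. In the MMI group hypothyroidism was induced over 20 days by 0.1% methimazole, a drug that blocks thyroid hormone synthesis, in the water, to which the study's methods add sodium perchlorate, a blocker of iodide uptake. The MMI+T3 group was treated likewise and was then injected once a day with T3 (triiodothyronine, the hormone's active form), 5 times in all, with tissue taken 24 h after the final dose. CT mice were controls aged 8 to 12 weeks that received neither drug. The sources do not say whether MMI or CT mice received vehicle injections, so a fall or rise after T3 cannot be told apart from one after repeated injection.

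Lipoproteins carry triglyceride and cholesterol in the blood, wrapped in apolipoproteins. The liver builds very-low-density lipoprotein (VLDL) on the scaffold apolipoprotein B, lipases in the capillaries and the liver strip the particles of triglyceride, receptors take up the remnants, and HDL carries cholesterol back. Thyroid hormone acts through nuclear receptors, of which the β form predominates in hepatocytes, and is known for lowering plasma cholesterol.

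After T3, 16 of the 33 genes differed from MMI, 9 higher and 7 lower. The genes that rose were the apolipoproteins Apoa4, Apof, Apom and Apon, the lipase Lipg, and 4 of the 5 genes of assembly, editing and secretion. These 4 were Sort1, Tm6sf2, Mttp and Apobec1. The genes that fell were Lpl, Lipc, the lipase inhibitor Angptl4, the HDL genes Pltp and Pon1, the receptor Vldlr, and Apoa2. Over all 14109 genes tested, 17.0% were called in this comparison, 9.83% higher and 7.18% lower (edgeR's quasi-likelihood test, Benjamini-Hochberg adjusted p under 0.05). The groups did not overlap for 19 of the 33 genes, against 34.9% of all genes. The median log2 fold change was -0.11 over the 33 genes and -0.02 over all genes tested.

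Fewer of the 33 genes passed the threshold between MMI and CT. Before adjustment, 12 of the 33 had p under 0.05 in MMI against CT and 20 after T3 against MMI (edgeR). In MMI against CT, 6 of the 33 genes were called: Lpl, Vldlr and Gpihbp1 were higher, and Sort1, Apof and Apon were lower. Over all genes tested 5.29% were called, 2.48% higher and 2.80% lower. The count of 6 fell to 3 without CT replicate 2, CT replicate 3 or MMI replicate 2, and that over all genes fell from 736 to 341 and 382 without CT replicate 2 and 3. The groups did not overlap for 15 of the 33 genes and for 26.4% of all genes, and the medians were -0.06 over the 33 genes and 0.01 over all genes. The CT libraries were deposited in a table of their own, so in both comparisons with CT a difference of group cannot be told apart from one of table.

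In MMI+T3 against CT, 17 of the 33 genes were called, 8 higher and 9 lower, beside 25.6% of all genes tested, 13.3% higher and 12.3% lower. The groups did not overlap for 22 of the 33 genes and for 42.2% of all genes. The median log2 fold change was -0.20 over the 33 genes and 0.01 over all genes. In all, 21 of the 33 genes were called in at least 1 comparison. The share of all genes so called was not counted, so this number is not read as a result. Because the comparisons share libraries, their values are given side by side below and no overlap between them is read as a result.

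**Figure D1:**
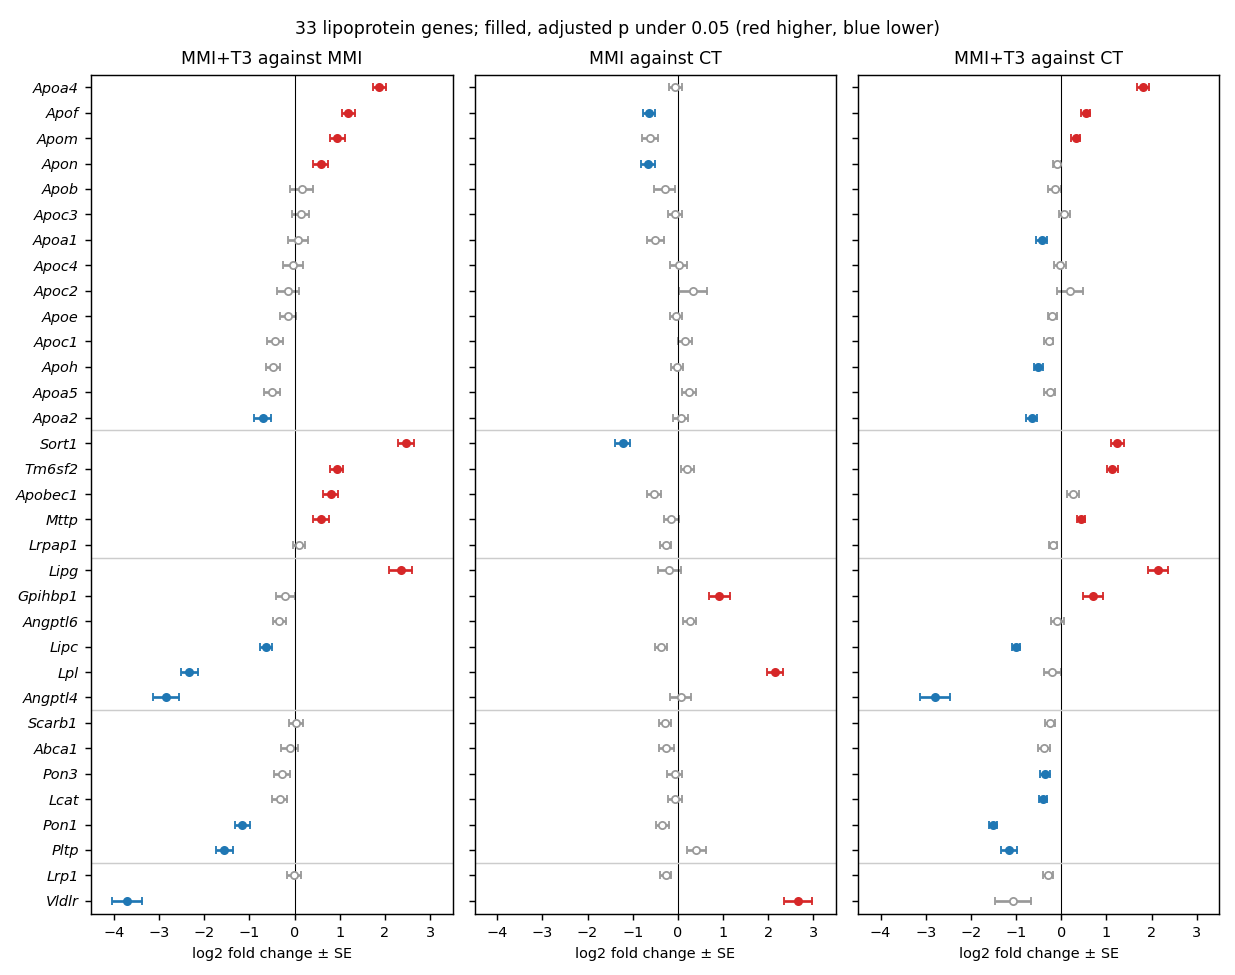
Log2 fold change ± SE of the 33 genes in each comparison, grouped by role from structural apolipoproteins at the top to uptake receptors at the bottom, with filled points past an adjusted p of 0.05 (red higher, blue lower). Vldlr has the lowest value after T3 (-3.71) and Sort1 the highest (2.46), and in MMI against CT only 6 points are filled.

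All values per library are normalised read counts (CPM, the counts divided by the library's TMM-adjusted total), listed for replicates 1, 2 and 3. Total counts were between 17256776 and 22599227 per library. Replicate 3 of the MMI group had the lowest total and 4.991% of its counts on mitochondrial genes, against 3.291 to 3.76% in the other 8 libraries. Libraries of a group also differed by transcript length. Relative to the other libraries of its group, the median log2 difference of MMI replicate 3 was 0.13 over 1553 genes with merged exons under 1500 bases and -0.09 over 4071 genes over 6000 bases, while MMI replicate 2 had -0.17 and 0.08 and MMI+T3 replicate 3 had 0.10 and -0.11. Of the 8 long lipoprotein genes, 7 were lower in MMI replicate 3 (median -0.35), beside 2402 of the 4071 long genes. In MMI+T3 replicate 3, 6 were lower (median -0.29), beside 2769 of the 4071. In CT replicate 3, 8 were lower (median -0.17), beside 2353 of the 4071. The part of this length pattern in the results was not tested. The spread within groups was widest in MMI, where the median coefficient of variation of the 33 genes was 18.6%, against 9.11% in CT and 11.4% in MMI+T3. Whether the libraries of a group came from separate mice is not stated in the sources, and the p-values therefore describe the spread among these libraries only, which may be technical.

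The tissue is whole liver. The hepatocyte marker Alb was the most abundant of its list at 18169 to 25438 CPM in the CT and MMI libraries, and was lower after T3 than in MMI at 11616 to 13005 CPM (log2 fold change -0.75, adjusted p = 0.012, edgeR). Of the 11 hepatocyte markers, 2 were lower after T3 than in MMI (Alb and Ttr) and 1 was higher (Ahsg, 0.64, adjusted p = 0.02). The shares of all genes tested were 7.18% and 9.83%, and the list's median was 0.17. In MMI against CT, 2 of the 11 were lower (Ass1 and Ahsg) and none was higher, beside 2.80% and 2.48% of all genes. The list's median there was -0.31. Its summed level was 51417 to 53807 CPM in CT, with 37735 to 43912 CPM in MMI against 36142 to 37105 CPM in MMI+T3. All 12 macrophage markers were higher after T3 than in MMI, beside 9.83% of all genes tested. Their summed level was 121 to 159 CPM in MMI, 148 to 188 CPM in CT and 348 to 679 CPM in MMI+T3. Clec4f, which marks resident liver macrophages, was 22.9 to 34.0 CPM in MMI against 79.3 to 155 CPM in MMI+T3. The endothelial list had 2 of its 10 markers called higher in MMI than in CT, beside 2.48% of all genes tested. All 10 had a positive log2 fold change there (median 0.53). In MMI+T3 against CT 5 of the 10 were called higher (median 0.45), beside 13.3% of all genes. The summed level of the list was 212 to 277 CPM in CT, with 294 to 351 CPM in MMI against 307 to 321 CPM in MMI+T3. Of the 7 adipocyte markers 3 were measured in both tables (Cfd, Cidec and Adrb3). The defining marker Adipoq, and Lep and Plin1, had no entry in the counts of the MMI and MMI+T3 libraries. All 3 measured markers were lower after T3 than in MMI, beside 7.18% of all genes tested. Their sums were 20.7 to 49.9 CPM in MMI against 13.1 to 15.2 CPM in MMI+T3. Adrb3 made up most of these sums, at 16.9 to 38.3 CPM in MMI and 12.9 to 14.7 CPM in MMI+T3. The part of these cell types in the results below was not tested. In bulk tissue, fewer cells of a type and less RNA per cell cannot be told apart.

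Promoter sequences were available from RefSeq (GRCm38.p6) for 23 of the 33 genes, as 29 windows beginning 250 bases upstream of a transcription start. AGGTCA, the core hexamer to which thyroid hormone receptors and related nuclear receptors bind, was searched on both strands in those 250 bases. It occurred in 6 of the 29 windows, in the genes Apoa2, Apoc2, Apoc4, Apoh, Apon and Lipc, that is in 20.7% of them, against 14.0% of all 32851 windows. The direct repeat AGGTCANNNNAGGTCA, whose matches also contain AGGTCA, was in none of the 29 windows and in 5 of all windows (0.0152%). The absence of a match says only that these letters are not in this window. The sequences of 3 of the genes are printed 5′ to 3′ on the strand of the gene, with AGGTCA in capitals. The genes are Apon, which fell in MMI and rose after T3, and Vldlr and Pon1, which fell after T3. These sequences lie at chr10:128253881-128254095 (plus strand), chr19:27216234-27216483 (plus strand) and chr6:5193947-5194196 (minus strand), upstream of exon sequence.
Apon: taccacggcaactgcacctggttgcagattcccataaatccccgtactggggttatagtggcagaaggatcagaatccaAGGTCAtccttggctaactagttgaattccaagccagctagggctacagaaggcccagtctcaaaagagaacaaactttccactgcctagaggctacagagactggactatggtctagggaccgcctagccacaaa
Vldlr: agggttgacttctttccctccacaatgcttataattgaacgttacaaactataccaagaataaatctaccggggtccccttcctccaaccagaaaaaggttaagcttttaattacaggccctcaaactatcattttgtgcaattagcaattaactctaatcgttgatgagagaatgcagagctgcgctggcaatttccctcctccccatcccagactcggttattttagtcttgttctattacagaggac
Pon1: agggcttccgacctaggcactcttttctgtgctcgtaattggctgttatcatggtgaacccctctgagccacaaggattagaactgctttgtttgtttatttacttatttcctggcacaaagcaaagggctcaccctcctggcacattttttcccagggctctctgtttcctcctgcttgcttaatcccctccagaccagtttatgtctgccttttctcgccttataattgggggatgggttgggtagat
The hexamer of Apon lay 171 to 166 bases before the start. The windows of Vldlr and Pon1 held no match, nor did that of Apobec1, which rose after T3. Of the 6 genes with a match, Apoa2 and Lipc fell after T3 against MMI and Apon rose. Apoc2, Apoc4 and Apoh were not called there. The part of the hexamer in these changes was not tested.

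The structural apolipoproteins took the largest share of the counts of any role, at a mean of 2.83% in CT. Scaled to transcript length (counts per kilobase of merged exons, scaled to the same total in each library), Apoe, the ligand by which remnants bind their receptors, was the highest of the 33 in CT at 12813, 13394 and 13002 and ranked 4 among 17144 genes. Apoa1, the main protein of HDL, followed at 10515, 11497 and 10714, and Apoa2, another HDL protein, at 8473, 9302 and 9351. These 3 ranges did not overlap. The next pair, Apoh and Apoc1, overlapped, at 2822 to 3031 and 2628 to 2839. Vldlr was the lowest of the 33 at 0.372 to 0.731. Together the 33 genes took 3.19 to 3.24% of all counts in CT, 2.98 to 3.39% of those in MMI and 2.83 to 3.03% of those in MMI+T3.

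**Figure D2:**
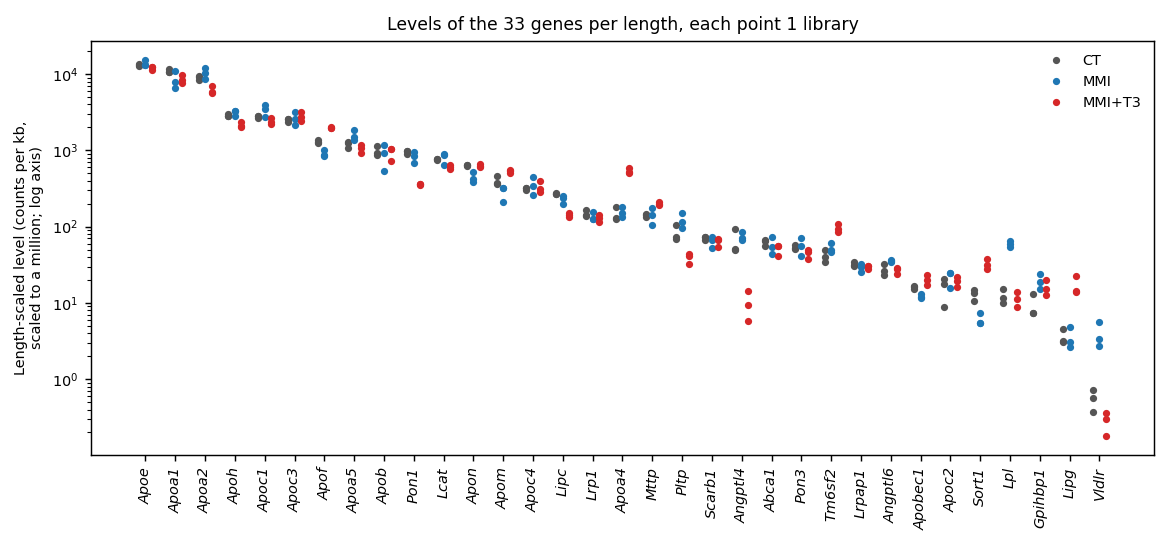
Length-scaled level of the 33 genes in each of the 9 libraries (log axis, counts per kilobase scaled to 1 total), ordered by the CT mean, with CT in grey, MMI in blue and MMI+T3 in red. The order runs from Apoe to Vldlr, and the red points of Angptl4 and Pon1 lie below the other groups while those of Apoa4 and Lipg lie above.

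Among the 14 structural apolipoproteins, 4 were higher and 1 was lower after T3 than in MMI, beside 9.83% and 7.18% of all genes tested. Apoa4 (ENSMUSG00000032080, chromosome 9, 46240696 to 46243459), which is carried on chylomicrons and HDL and favours triglyceride secretion, changed most. It was 123, 96.1 and 91.7 CPM in CT, with 99.1, 112 and 84.8 CPM in MMI against 345, 403 and 353 CPM in MMI+T3. Every MMI+T3 library stood above every other library, while CT and MMI overlapped. Its log2 fold change was 1.88 ± 0.15 (SE) against MMI and 1.81 ± 0.13 against CT (adjusted p = 1.28e-05 and 6.32e-06, edgeR), and -0.06 ± 0.15 in MMI against CT (adjusted p = 0.875). On the opposite strand, 634 of its 1815 exonic bases overlap Gm47528 and 632 overlap Gm10680. Of this pair, only Gm10680 had an entry in the counts of the MMI and MMI+T3 libraries.

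Apof (ENSMUSG00000047631, chromosome 10, 128268671 to 128270153), known in humans as an inhibitor of lipid transfer between lipoproteins, was called in all 3 comparisons. Its level was 579, 650.4 and 698 CPM in CT, with 469, 377 and 377 CPM in MMI against 966, 924 and 929 CPM in MMI+T3. The groups were fully apart, with MMI lowest and MMI+T3 highest. It was lower in MMI than in CT by a log2 fold change of -0.64 ± 0.14 (adjusted p = 0.0215), and higher after T3 than in MMI by 1.19 ± 0.15 (adjusted p = 0.000261) and than in CT by 0.54 ± 0.10 (adjusted p = 0.00277, edgeR). The fall in MMI was no longer called without CT replicate 2 (adjusted p = 0.107), CT replicate 3 (0.122) or MMI replicate 2 (0.0578).

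Apon, the neighbour of Apof, had 453 ± 23.4 CPM in CT, with 281 ± 58.1 CPM in MMI against 425 ± 15.9 CPM in MMI+T3 (SD, n = 3). The MMI libraries, at 346, 235 and 263 CPM, all lay below the CT and MMI+T3 libraries. On the log2 scale the change was -0.67 ± 0.15 in MMI against CT (adjusted p = 0.0296, edgeR) and 0.58 ± 0.16 after T3 against MMI (adjusted p = 0.0341), and MMI+T3 was not called against CT (-0.10, adjusted p = 0.454). Both calls were at the edge. The first was lost without CT replicate 1, 2 or 3 or MMI replicate 2 (adjusted p = 0.066, 0.128, 0.12 and 0.0707), and the other without MMI replicate 2 or 3 or any of the MMI+T3 libraries (0.104, 0.0574, 0.0951, 0.0779 and 0.0885).

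Apom, which carries a signalling sphingolipid on HDL, was 158 ± 16.6 CPM in CT, with 102 ± 24.2 CPM in MMI against 199 ± 11.5 CPM in MMI+T3. It rose after T3 by 0.95 ± 0.17 on the log2 scale against MMI (adjusted p = 0.00336, edgeR). Against CT it was higher by 0.32 ± 0.10 (adjusted p = 0.0434), a call lost without CT replicate 2 or 3 or MMI+T3 replicate 1 or 2 (0.154, 0.172, 0.129 and 0.0908). In MMI against CT it had -0.62 ± 0.17 (adjusted p = 0.0693) with no overlap between the groups, and it was called with the replicate block (0.0157), with DESeq2 (0.0112) and in a fit over all 9 libraries (0.0371).

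Apoa2 was the structural apolipoprotein that fell after T3. Its level was 1699.6, 2012 and 2010.3 CPM in CT, with 1998, 1599.8 and 2294 CPM in MMI against 1125, 1156 and 1376 CPM in MMI+T3. All MMI+T3 libraries lay below the other 6. Expressed as log2, the fold change was -0.71 ± 0.18 against MMI (adjusted p = 0.0209, edgeR) and -0.66 ± 0.12 against CT (adjusted p = 0.00236), and the former was not called without MMI replicate 1 or MMI+T3 replicate 1 or 2 (0.0658, 0.0988 and 0.0801).

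Apoa1 was called only in MMI+T3 against CT. It had 4854, 5723 and 5301 CPM in CT, with 3535, 2769.6 and 4760.0 CPM in MMI against 4525, 3555 and 3786 CPM in MMI+T3. Both treated groups lay below CT, and they overlapped each other. The log2 fold change was 0.08 ± 0.22 after T3 against MMI (adjusted p = 0.849), -0.50 ± 0.19 in MMI against CT (adjusted p = 0.174) and -0.43 ± 0.12 in MMI+T3 against CT (adjusted p = 0.0237, edgeR). That last call was lost without CT replicate 2 or 3 or MMI+T3 replicate 2 (0.109, 0.0807 and 0.0641). Without MMI replicate 3, the highest MMI library, Apoa1 was lower in MMI than in CT by -0.74 (adjusted p = 0.00826).

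Apoh, a phospholipid-binding plasma glycoprotein, was lower after T3 than in CT, at 1278 ± 99.4 against 1810.2 ± 12.9 CPM (-0.51 ± 0.10, adjusted p = 0.00342, edgeR). Against MMI, at 1765 ± 182 CPM, it missed the threshold (-0.48 ± 0.15, adjusted p = 0.0538) and passed it in 7 of the 15 alternatives, among them without MMI replicate 3 (0.021) and with DESeq2 (0.0106).

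Apob, the scaffold of VLDL and low-density lipoprotein, was not called in any comparison. Its libraries read 5902, 5118 and 4920.5 CPM in CT, with 4626, 5626 and 2632 CPM in MMI against 5357, 5384 and 3797 CPM in MMI+T3. The groups overlapped, and MMI replicate 3 was lower than the other MMI libraries by 0.96 on the log2 scale. The log2 fold change after T3 was 0.16 ± 0.26 against MMI (adjusted p = 0.738, edgeR), with -0.29 ± 0.23 in MMI against CT (adjusted p = 0.542).

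Apoe was also called nowhere, at 10233, 11533 and 11128 CPM in CT, with 10376, 9579.6 and 11617 CPM in MMI against 10017, 9066 and 9789 CPM in MMI+T3. The MMI libraries overlapped both other groups, while the MMI+T3 libraries lay below CT, and the log2 fold change after T3 was -0.15 ± 0.17 against MMI (adjusted p = 0.606, edgeR) and -0.20 ± 0.10 against CT (adjusted p = 0.19). Apoe is also made by macrophages, whose summed markers are given above. The other structural apolipoproteins, Apoa5, Apoc1, Apoc2, Apoc3 and Apoc4, were called in no comparison. Apoa5, an activator of lipoprotein lipase, had the largest of their changes after T3, -0.50 ± 0.18 (adjusted p = 0.0848), which passed with DESeq2 (0.0344) and in the fit over 9 libraries (0.0445). Apoc3, an inhibitor of the same lipase, had 0.13 ± 0.19 (adjusted p = 0.682). Apoc1 had -0.43 ± 0.17 (adjusted p = 0.123) and passed without MMI replicate 2 (0.0428), and also in MMI+T3 against CT without MMI+T3 replicate 3 (0.0311). Apoc2, the cofactor of lipoprotein lipase, shares 646 of its 813 exonic bases with a read-through gene on the same strand, so its level of 4.97 ± 1.95 CPM in CT is uncertain.

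Several of the genes lie next to each other, and their calls after T3 against MMI are listed by cluster, beside 17.0% of all genes tested. On chromosome 9, Apoa1, Apoc3, Apoa4 and Apoa5 lie within 43.3 kb, and 1 of the 4 was called after T3, Apoa4. On chromosome 7, Apoc2, Apoc4, Apoc1 and Apoe lie within 27.6 kb and 0 of the 4 were called. On chromosome 10, Apon and Apof lie within 16.1 kb and both were higher. On chromosome 6, Pon1 and Pon3 lie within 88.2 kb, and Pon1 was lower while Pon3 was not called.

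**Figure D3:**
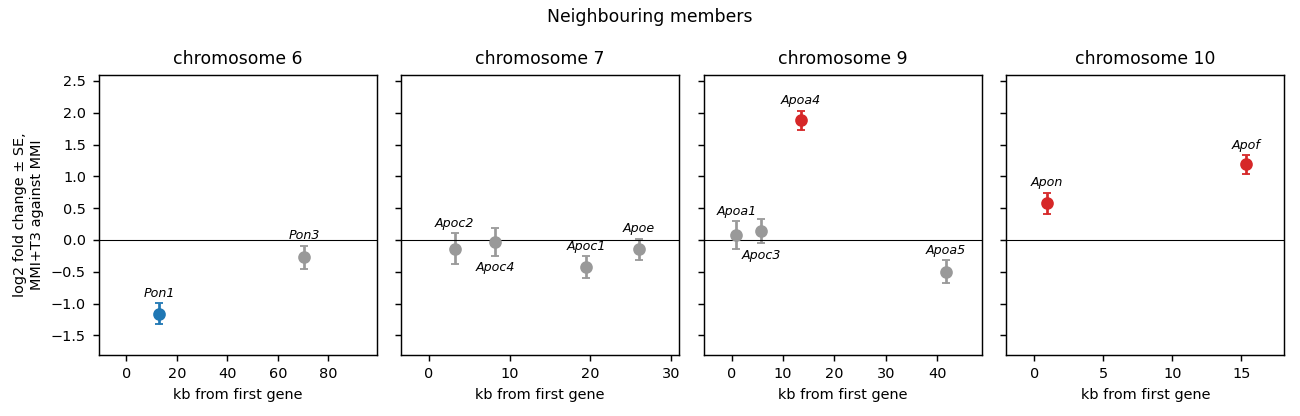
Log2 fold change ± SE of MMI+T3 against MMI for the genes of each cluster, by distance in kb from the first base of the cluster, with called genes in red (higher) or blue (lower) and others in grey. Apoa4 stands at 1.88 beside Apoa1 at 0.08, and Pon1 at -1.16 beside Pon3 at -0.27.

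Of the 5 genes of assembly, editing and secretion, 4 were higher after T3 than in MMI and none was lower, beside 9.83% and 7.18% of all genes tested. Sort1 (ENSMUSG00000068747, chromosome 3, 108284082 to 108361511), which encodes sortilin, an intracellular sorting receptor that binds apolipoprotein B, changed most. It was 41.6, 40.6 and 31.9 CPM in CT, with 15.1, 14.0 and 19.5 CPM in MMI against 106, 88.0 and 77.2 CPM in MMI+T3. The groups were apart in all 3 comparisons, with MMI lowest and MMI+T3 highest. Its log2 fold change was -1.22 ± 0.16 in MMI against CT (adjusted p = 0.00146), 2.46 ± 0.17 after T3 against MMI (adjusted p = 6.8e-06) and 1.24 ± 0.14 against CT (adjusted p = 0.000134, edgeR).

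Tm6sf2, an endoplasmic reticulum and Golgi protein that helps load lipid onto VLDL, had 34.9, 26.4 and 30.5 CPM in CT, with 31.8, 39.7 and 33.2 CPM in MMI against 66.4, 60.5 and 75.4 CPM in MMI+T3. The MMI+T3 libraries stood above all others. It rose by 0.93 ± 0.14 against MMI (adjusted p = 0.00101, edgeR) and 1.13 ± 0.13 against CT (adjusted p = 0.000127).

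Mttp, the microsomal protein that transfers triglyceride onto nascent apolipoprotein B, was 344, 359.9 and 329 CPM in CT, with 324, 372 and 227 CPM in MMI against 451, 491 and 458 CPM in MMI+T3. The MMI+T3 libraries were again above the other 6, and MMI replicate 3 was the lowest of all. On the log2 scale the change was 0.43 ± 0.09 against CT (adjusted p = 0.0062) and 0.59 ± 0.18 against MMI (adjusted p = 0.0456, edgeR). The call against MMI was lost without MMI replicate 1 or any 1 of the MMI+T3 libraries (0.0983, 0.101, 0.134 and 0.0935).

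Apobec1, the deaminase that edits apolipoprotein B mRNA, was 16.9 ± 1.54 CPM in CT, with 11.6 ± 1.00 CPM in MMI against 20.4 ± 2.99 CPM in MMI+T3. It rose after T3 against MMI by 0.80 ± 0.16 (adjusted p = 0.006, edgeR). MMI was below CT in all libraries without passing the threshold (-0.53 ± 0.15, adjusted p = 0.0661). Lrpap1, a chaperone of endocytic receptors, was called in no comparison (0.09 ± 0.13 after T3 against MMI). The 5 genes together took 0.0455% of the counts in CT, 0.043% of those in MMI and 0.0698% of those in MMI+T3.

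Among the 3 lipases, Lpl and Lipc fell after T3 and Lipg rose. Lpl (ENSMUSG00000015568, chromosome 8, 68880491 to 68907448) encodes lipoprotein lipase, which hydrolyses triglyceride on capillary walls and is made in small amounts by adult liver. It read 45.2, 63.9 and 42.4 CPM in CT, with 249, 193 and 219.6 CPM in MMI against 44.1, 54.6 and 34.4 CPM in MMI+T3. The MMI libraries stood far above the others, while CT and MMI+T3 overlapped. Lpl was 4.41-fold higher in MMI than in CT (log2 2.14 ± 0.18, adjusted p = 4.42e-05) and 5.04-fold lower after T3 (log2 -2.33 ± 0.18, adjusted p = 1.28e-05), and MMI+T3 was not called against CT (-0.20 ± 0.19, adjusted p = 0.481, edgeR). Macrophages and adipocytes also express Lpl. The summed macrophage markers were 121 to 159 CPM in MMI against 348 to 679 CPM in MMI+T3. The 3 measured adipocyte markers were lower after T3 than in MMI (Cfd -3.66, Cidec -3.14 and Adrb3 -1.01 on the log2 scale), with sums of 20.7 to 49.9 CPM in MMI against 13.1 to 15.2 CPM in MMI+T3, and of 20.1 to 46.0 CPM in CT. The part of either list in the change was not tested.

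Lipg (ENSMUSG00000053846, chromosome 18, 74939322 to 74961263), endothelial lipase, which acts mainly on HDL phospholipid, rose. It was 5.59, 5.92 and 8.59 CPM in CT, with 5.22, 7.73 and 4.41 CPM in MMI against 25.6, 24.5 and 39.4 CPM in MMI+T3. All 3 MMI+T3 libraries were above the rest, and CT and MMI overlapped. Expressed as log2, the fold change was 2.35 ± 0.25 against MMI (adjusted p = 0.0001) and 2.15 ± 0.22 against CT (adjusted p = 7.6e-05, edgeR). The macrophage markers summed to 121 to 159 CPM in MMI against 348 to 679 CPM in MMI+T3. Endothelial markers summed to 294 to 351 CPM in MMI against 307 to 321 CPM in MMI+T3. The part of either list in the rise of Lipg was not tested.

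Lipc, hepatic lipase, fell. It was 215, 235 and 235 CPM in CT, with 200.5, 174 and 150.0 CPM in MMI against 113, 121 and 108 CPM in MMI+T3. The groups were apart, with CT highest and MMI+T3 lowest. The step from CT to MMI was not called (-0.37 ± 0.13, adjusted p = 0.149), and MMI+T3 was lower than CT by -1.01 ± 0.09 (adjusted p = 2.92e-05) and than MMI by -0.63 ± 0.14 (adjusted p = 0.00995, edgeR). The call against MMI was lost without MMI replicate 1 or MMI+T3 replicate 1 (0.0558 and 0.0528).

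Angptl4 (ENSMUSG00000002289, chromosome 17, 33773750 to 33781830), a secreted inhibitor of lipoprotein lipase, had 68.2, 70.4 and 132 CPM in CT, with 85.6, 86.4 and 106 CPM in MMI against 7.58, 12.4 and 19.1 CPM in MMI+T3. The MMI+T3 libraries lay far below the others, and the CT and MMI libraries overlapped. Angptl4 was 7.18-fold lower after T3 than in MMI (log2 -2.84 ± 0.28, adjusted p = 5.84e-05) and also lower than in CT (-2.79 ± 0.33, adjusted p = 0.000187, edgeR). Angptl4 is expressed in adipocytes as well, and the 3 adipocyte markers fell in the same comparison, from 20.7 to 49.9 CPM in sum to 13.1 to 15.2 CPM, with Cfd at 0 to 0.836 CPM in MMI+T3 and 2.49 to 5.56 CPM in MMI. Their part in the change was not tested.

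Gpihbp1, the capillary protein that holds lipoprotein lipase in place, was 12.5, 7.62 and 7.60 CPM in CT, with 14.3, 16.4 and 21.1 CPM in MMI against 14.3, 12.2 and 18.9 CPM in MMI+T3. MMI lay above CT, with MMI+T3 overlapping both. Its log2 fold change was 0.92 ± 0.23 in MMI against CT (adjusted p = 0.0438) and 0.70 ± 0.23 in MMI+T3 against CT (adjusted p = 0.0459, edgeR). The first was lost without CT replicate 2 or 3 or MMI replicate 2 or 3 (0.183, 0.157, 0.0589 and 0.1), and the other without CT replicate 2 or 3 or MMI+T3 replicate 1 or 3 (0.153, 0.154, 0.0745 and 0.145). Gpihbp1 is an endothelial gene, and the endothelial markers were 212 to 277 CPM in sum in CT and 294 to 351 CPM in MMI. Their part in it was not tested. Angptl6, a liver-derived angiopoietin-related protein, was called in no comparison (-0.34 ± 0.14 after T3 against MMI, adjusted p = 0.131).

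**Figure D4:**
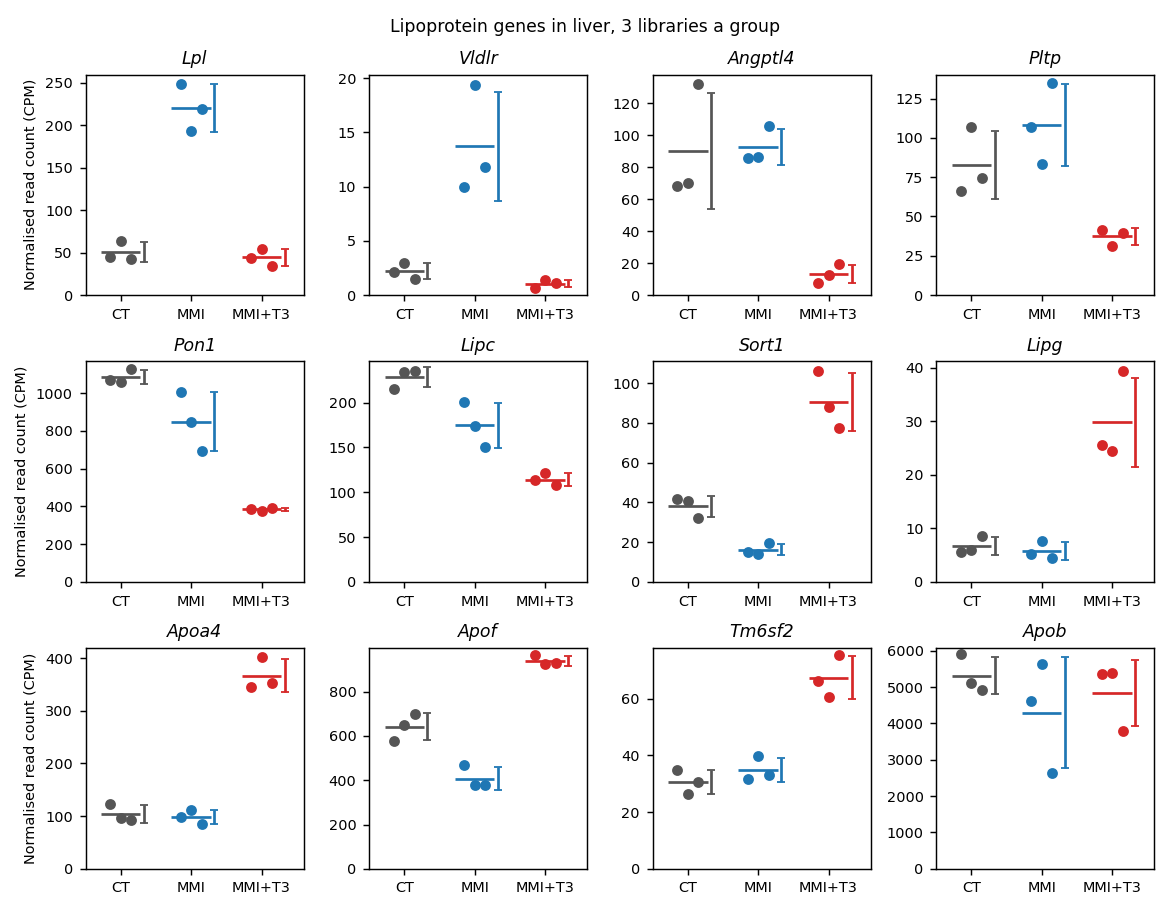
Normalised read count (CPM) of 12 of the genes in each library, with the group mean as a line and the bracket showing ± 1 SD (n = 3) on axes that start at 0. Lpl and Vldlr peak in MMI, Sort1, Lipg, Apoa4, Apof and Tm6sf2 peak in MMI+T3, and the 3 groups of Apob overlap.

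Of the 6 genes of HDL remodelling and export, 2 were lower after T3 than in MMI and 4 were lower than in CT, beside 7.18% and 12.3% of all genes tested. None was called higher, beside 9.83% and 13.3% of all genes. Pon1 (ENSMUSG00000002588, chromosome 6, 5168090 to 5193946), a lactonase carried on HDL, was 1069.8, 1057 and 1130.3 CPM in CT, with 1005, 845 and 692 CPM in MMI against 387, 376 and 390.3 CPM in MMI+T3. The groups were apart, with MMI+T3 lowest. It fell by 1.16 ± 0.16 on the log2 scale against MMI (adjusted p = 0.00057) and by 1.51 ± 0.09 against CT (adjusted p = 1.87e-06, edgeR), while MMI against CT was not called (-0.34, adjusted p = 0.235).

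Pltp (ENSMUSG00000017754, chromosome 2, 164839518 to 164857711), which transfers phospholipid between lipoproteins, had 66.2, 107 and 74.8 CPM in CT, with 107, 83.3 and 135 CPM in MMI against 41.7, 31.2 and 39.4 CPM in MMI+T3. The MMI+T3 libraries were below the other 6, and CT and MMI overlapped. The log2 fold change was -1.56 ± 0.19 against MMI (adjusted p = 0.00027) and -1.15 ± 0.18 against CT (adjusted p = 0.000898, edgeR), and 0.41 ± 0.21 in MMI against CT (adjusted p = 0.326). Exons of Ctsa on the opposite strand overlap 495 of its 2562 exonic bases.

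Lcat, which esterifies cholesterol on HDL, was 401 ± 13.3 CPM in CT, with 381 ± 73.7 CPM in MMI against 306 ± 18.6 CPM in MMI+T3. It was lower after T3 than in CT (-0.40 ± 0.09, adjusted p = 0.00845, edgeR), and against MMI it was not called (-0.33 ± 0.16, adjusted p = 0.194) except without MMI replicate 3 (0.0221). Pon3, another lactonase of HDL, was at 55.7 ± 7.86 CPM in MMI+T3 and 70.8 ± 1.67 CPM in CT (-0.36 ± 0.11, adjusted p = 0.0377), a call lost when CT replicate 1, 2 or 3 or MMI+T3 replicate 2 or 3 was left out (0.0731, 0.0804, 0.084, 0.0569 and 0.074). Abca1, the exporter that loads Apoa1 with cholesterol, was at 254 ± 17.1, 209.6 ± 50.8 and 197 ± 34.3 CPM in CT, MMI and MMI+T3, and was called in no comparison, though against CT (adjusted p = 0.054) it passed with the replicate block (0.0174), DESeq2 (0.0182), limma-voom (0.0447) or DESeq2 size factors (0.0484), or without MMI+T3 replicate 1 (0.0476). Scarb1, the receptor that takes up HDL cholesterol, was at 236 ± 14.5, 192 ± 29.8 and 199 ± 22.8 CPM and was called in none.

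Vldlr (ENSMUSG00000024924, chromosome 19, 27216484 to 27254231), a receptor for triglyceride-rich particles that adult liver expresses little of, had the largest change of the 33 after T3 against MMI and in MMI against CT. It was 2.14, 2.96 and 1.50 CPM in CT, with 9.93, 19.4 and 11.8 CPM in MMI against 0.680, 1.36 and 1.12 CPM in MMI+T3. These values rest on 46, 54 and 30 counts in CT, on 219, 452 and 225 counts in MMI, and on only 13, 28 and 23 counts in MMI+T3. All MMI libraries were above all others, and CT lay above MMI+T3. Vldlr was 6.32-fold higher in MMI than in CT (log2 2.66 ± 0.31, adjusted p = 0.000664) and 13.1-fold lower after T3 than in MMI (log2 -3.71 ± 0.33, adjusted p = 3.02e-05), and MMI+T3 against CT missed the threshold (-1.06 ± 0.40, adjusted p = 0.075, edgeR). Lrp1, the large endocytic receptor for remnants, was called in no comparison, at 1033 ± 65.0, 847 ± 81.3 and 851 ± 90.5 CPM in CT, MMI and MMI+T3.

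In MMI+T3 against MMI, Apoa4, Apof, Apom, Apobec1, Tm6sf2, Sort1, Lpl, Lipg, Angptl4, Pltp, Pon1 and Vldlr stayed called in all 15 alternatives tried.

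Other genes of lipoprotein metabolism were counted from a list of 62, of which 60 were tested. After T3, 11 were higher and 4 lower than in MMI, beside 9.83% and 7.18% of all genes tested, and 8 in all were called without MMI replicate 1. The 4 lower included Cd36, a fatty acid transporter (-1.40, adjusted p = 0.000684, edgeR), Nr0b2, a repressor of bile acid synthesis (-1.01, adjusted p = 0.000607), and Creb3l3, a transcription factor of triglyceride metabolism (-1.07, adjusted p = 0.00322). Apol9a (1.36) has a near-identical copy, so its counts are uncertain.

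In MMI against CT, 3 of the 60 were higher and 2 lower, beside 2.48% and 2.80% of all genes tested, and 3 in all were called without any 1 of the CT libraries or MMI replicate 3, and 8 without MMI replicate 2. Cd36 was higher (1.55, adjusted p = 0.000974), as was Angptl8, a secreted regulator of lipoprotein lipase (0.98, adjusted p = 0.00706), and Apol9a was lower (-1.06, adjusted p = 0.00934). Stab1 (0.87) and Lrp5 (-0.55) were called at an adjusted p of 0.0498 and 0.0462, and lost the call in 4 and 5 of the 6 leave-one-out fits. Npc1, a lysosomal cholesterol exporter, missed the threshold (-0.48, adjusted p = 0.0828) and passed without MMI replicate 2 (0.0327).

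In MMI+T3 against CT, 11 of the 60 were higher and 11 lower, beside 13.3% and 12.3% of all genes tested. Nr0b2 (-1.21, adjusted p = 7.57e-05) and Creb3l3 (-1.20, adjusted p = 0.000776) were lower. Abcg5 and Abcg8, the pair that exports sterol into bile, were higher by 1.02 and 1.06 on the log2 scale, while Sar1b, needed for the export of lipoproteins from the endoplasmic reticulum, was lower (-0.64, adjusted p = 0.000776).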

How the data were processed

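RNA of mouse liver was sequenced in 9 samples, from libraries made with Illumina's TruSeq stranded mRNA preparation according to the study's methods. The values deposited by the authors are unnormalized counts of reads for each gene, in a pair of tables, one with the MMI and MMI+T3 libraries (17758 genes) and one with the CT libraries (17477 genes), both listing Ensembl gene identifiers with symbols. GRCm38, HTSeq 0.6.1p1 and HISAT2 2.1.0 are listed in the submitters' processing notes, while the study's methods name STAR, so the aligner behind the counts was not settled. The strand setting of the counting and the treatment of reads with several matches are not given in the sources used here, so reads of a gene and of an overlapping antisense gene cannot be told apart. Besides Apoa4 and Pltp, antisense overlaps covered exonic bases of Apoa5 (20.8%), Angptl6 (16.8%), Mttp (7.4% and 2.1%), Sort1 (4.5%) and Apoh (1.9%).

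The counts were tested with edgeR 4.0.16 in R 4.3.3 (filterByExpr with a minimum count of 10, TMM scaling, quasi-likelihood test), with Benjamini-Hochberg adjustment over all genes tested and a threshold of 0.05. A comparison used only its own 6 libraries, and those with CT the 17154 genes in both tables. Log2 fold changes are given ± SE, and CPM as mean ± SD. The code was tested on simulated data. Alternatives were other scalings, dropping the filter or raising it to 50 counts in at least 3 libraries, DESeq2 1.42.0, limma-voom (limma 3.58.1), 1 fit over all 9 libraries, a replicate block and each library left out in turn. Gene positions and exon lengths are from GENCODE on GRCm38, which held 17748 of the 17758 identifiers, and promoter sequences from RefSeq (GRCm38.p6). In the symbol column 21 entries had turned into dates, none of them a gene described here.

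The 33 genes, the list of 62 and the marker lists were chosen with earlier results of these data known. All 33 are accounted for, with values for every gene past the threshold in at least 1 comparison and all 9 libraries for those with an absolute log2 fold change of at least 1 there, and for Apob, Mttp, Apoa1, Apoe and Lpl. From the list of 62, those named are among the 6 with the lowest adjusted p in each comparison. Some genes of that list are not reported here.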

Additional observations from a re-analysis of the deposited data

How the results depend on the processing

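Counts of called genes were within 1.5 times of the reported ones under other scalings, filters and tests, except that DESeq2's Wald test called 1152 genes in MMI against CT where edgeR called 736, and upper quartile scaling called 3 of the other lipoprotein genes there, not 5. Same-numbered libraries of different groups correlated at -0.0743 to 0.167 in their deviations from the group mean, and differently numbered ones at -0.216 to 0.149. The highest value was that of replicate 3 of MMI and MMI+T3, and not every library correlated best with its own number. As these ranges overlap, they cannot decide whether replicate numbers pair the libraries. With the number as a replicate block, 16 of the 33 genes were called after T3 against MMI, 7 in MMI against CT and 18 in MMI+T3 against CT, beside 16, 6 and 17 without it. Over all genes the block gave 2530, 984 and 3759 calls, beside 2400, 736 and 3548 without it. Scaling by library totals alone moved the median of all genes to 0.15 in MMI against CT and 0.12 in MMI+T3 against CT. It split the genes called into 516 higher and 261 lower (reported as 346 and 390) and into 2586 and 1165 (1846 and 1702). Under it, genes with values near 0 changed sign: in MMI against CT Apoa4 0.069, Apoc3 0.074, Apoe 0.094, Apoh 0.11, Lcat 0.065 and Pon3 0.049, and in MMI+T3 against CT Apoc4 0.083, Apon 0.0072 and Angptl6 0.018. In MMI against CT, Apoc4 was -0.0034 with no filter, -0.0084 with DESeq2, -0.024 with limma-voom and -0.024 with the replicate block, and Apoh was 0.0074 with upper quartile scaling. None of these was called, and the cause was not tested. Calls among the 33 genes that other settings ended were, under library totals, Apon in MMI against CT (adjusted p = 0.0525) and Apoa1 (0.0567) and Pon3 (0.117) in MMI+T3 against CT, with no filter Apom there (0.0529), and in the fit over 9 libraries Apoa1, Apom, Mttp, Lcat and Pon3 there (0.0651 to 0.167). Calls gained were, after T3 against MMI, Apoa5 with DESeq2 and the 9-library fit and Apoh with upper quartile scaling, library totals, the stricter filter, DESeq2, limma-voom and the 9-library fit; in MMI against CT, Apom and Apobec1 with DESeq2 and the 9-library fit, and Apom with the replicate block (0.0157); and in MMI+T3 against CT, Apoc1 and Lrp1 with DESeq2 and Abca1 with DESeq2, its size factors, limma-voom and the replicate block (0.0174). Leaving out 1 library gave 341 to 783 genes called in MMI against CT, 3 to 6 of the 33 and 3 to 8 of the other lipoprotein genes (8 to 18 after T3 against MMI). The count of 3 came without CT replicate 2, CT replicate 3 or MMI replicate 2. Without 1 library, some log2 fold changes crossed 0. After T3 against MMI they ran from -0.096 to 0.32 for Apoa1, -0.090 to 0.39 for Apob, -0.34 to 0.012 for Apoc2, -0.015 to 0.29 for Apoc3, -0.23 to 0.20 for Apoc4, -0.26 to 0.076 for Abca1, -0.077 to 0.13 for Scarb1 and -0.074 to 0.073 for Lrp1. In MMI against CT they ran from -0.074 to 0.18 for Apoa2, -0.16 to 0.078 for Apoa4, -0.22 to 0.077 for Apoc3, -0.22 to 0.20 for Apoc4, -0.13 to 0.018 for Apoe, -0.093 to 0.051 for Apoh, -0.31 to 0.025 for Mttp, -0.46 to 0.016 for Lipg, -0.12 to 0.43 for Angptl4, -0.18 to 0.085 for Lcat and -0.25 to 0.10 for Pon3. In MMI+T3 against CT they ran from -0.23 to 0.00062 for Apob, -0.080 to 0.46 for Apoc2, -0.046 to 0.15 for Apoc3, -0.17 to 0.063 for Apoc4, -0.38 to 0.0012 for Lpl and -0.18 to 0.0081 for Angptl6. Vldlr rests on 13 to 28 counts per MMI+T3 library.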
